A study of Mus musculus with 33 samples.

Results

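The genes described here are 9 genes that circulating monocytes transcribe, Ly6c2, Ly6a, Ly6e, F13a1, Vcan, Fn1, Hp, Lyz2 and Plac8, followed as possible traces of recent recruitment in 2 populations of resident macrophages. They were chosen by symbol, 9 of 24421 genes in the count files, and were read in all 33 bulk RNA-seq samples across 6 groups. Kupffer cells (KCs), the macrophages of the liver sinusoids, came from Zeb2 fl/fl mice (CRE- KCs, n = 6) and from Zeb2 fl/fl mice with the Clec4f-cre driver, where they were divided by the surface receptor Tim4 into Tim4+ KCs (n = 6) and Tim4- KCs (n = 6). Alveolar macrophages (AMs), the macrophages of the lung airspaces, came from Zeb2 fl/fl mice (CRE- AMs, n = 5) and from Zeb2 fl/fl mice with the Itgax-cre driver, divided by the integrin CD11b into CD11b- AMs (n = 5) and CD11b+ AMs (n = 5). All animals were 6 to 8 weeks old, on a C57Bl/6 background and of mixed sex, and the floxed Zeb2 alleles were carried by the controls too. The design asks how loss of the transcription factor ZEB2 changes each macrophage, and for these genes whether the Tim4- and CD11b+ fractions carry monocyte transcripts.

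Several features limit these groups as a model. Per the study, Clec4f-cre also marks a minor population of B cells and Itgax-cre marks other CD11c+ cells, some CRE+ macrophages keep an undeleted Zeb2 allele, and the deleted allele still gives a truncated mRNA. In the flow cytometry of the study, liver macrophages were taken among Ly6G- Ly6C- cells, and whether the bulk sort used that gate is not given in the sources used here. No source says that samples of a group came from separate animals, so p-values measure the spread between these samples, which may be technical. In bulk RNA, fewer cells of a type and less RNA per cell cannot be told apart.

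Classical monocytes leave the bone marrow with high surface Ly6C, enter tissues, and lose monocyte transcripts as they differentiate into macrophages. Transcripts of a recent arrival include those of Ly6C itself (Ly6c2), of a transglutaminase (F13a1), of the matrix proteoglycan versican (Vcan) and of the small cysteine-rich protein encoded by Plac8. Other genes in the set are shared with mature macrophages or other cells. Lysozyme (Lyz2) is made by nearly all myeloid cells, haptoglobin (Hp) is a hemoglobin-binding protein of hepatocytes and granulocytes, fibronectin (Fn1) is a matrix protein of many cells, and Ly6a and Ly6e are interferon-inducible Ly6 family genes.

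The samples held 9837240 to 24332306 counts in genes (median 20683608), and the lowest was Tim4- KC replicate 1. Levels are given as counts per 1000000 counted reads (CPM). Zeb2 ranged from 240 to 342 CPM in CRE- KCs, from 150 to 218 CPM in Tim4+ KCs and from 149 to 196 CPM in Tim4- KCs. In AMs, Zeb2 ranged from 174 to 211 CPM in CRE-, from 85.7 to 115 CPM in CD11b- and from 44.1 to 62.1 CPM in CD11b+ samples. Zeb2 was thus lower in every CRE+ than in every CRE- sample of the same tissue, and the remaining counts are no clean check of deletion because of the truncated mRNA. The sort markers followed the labels, with Timd4 at 672 CPM or more in CRE- KCs and at 8.34 CPM or less in Tim4- KCs, and Itgam, which encodes CD11b, at 22.5 CPM or less in CD11b- AMs and at 213 CPM or more in CD11b+ AMs. The Kupffer cell gene Clec4f stayed between 2724 and 12316 CPM in all KC samples and at 0.399 CPM or less in AMs.

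In CD11b+ AMs, 5 of the 9 genes rose over CRE- AMs. Ly6c2 went from near 0 to 101 ± 44.7 CPM (SD, n = 5), F13a1 to 34.8 ± 17.3 CPM, Plac8 to 13.9 ± 7.94 CPM, Hp to 13.5 ± 4.64 CPM and Ly6e to 1135 ± 129 CPM. Fn1 fell, Lyz2 and Ly6a did not pass the test, and Vcan had no count. A gene was called when edgeR's quasi-likelihood test gave an adjusted p (Benjamini-Hochberg over all genes tested) under 0.05 and a log2 fold change beyond 1 in either direction. By that rule 9.57% of all 11573 genes tested were higher and 5.68% lower in CD11b+ than in CRE- AMs, beside 5 higher and 1 lower of the 8 members tested. Ly6c2, F13a1 and Plac8 were near 0 in the other AMs and passed the filter on low counts through the CD11b+ samples, where they are high, so the count over tested members is a description. With at least 10 counts required in every sample these 3 genes are not tested, and 2 members, Hp and Ly6e, were higher. Vcan was the member that did not pass the filter on low counts in the AM fit.

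In Tim4- KCs other members were called. Of 7 members tested, Ly6a rose and Fn1 was called lower against CRE- KCs, where 3.43% of 12500 genes were higher and 5.39% lower. The Fn1 value went from -2.03 to -0.26 with KC replicates 1 to 4 alone, and its call was also lost by limma-voom, with the replicate block and on leaving out any of 7 samples. Ly6c2 and Vcan did not pass the filter on low counts in KCs, and F13a1, Hp and Plac8 did not pass the test, which does not show that they were equal. Of 11 other classical monocyte genes, Ccr2, Emb and Ms4a4c were called higher in the same cells and 0 lower, and the others were not called. In Tim4+ KCs, 1 of 7 members tested was higher (Ly6a) and 0 lower, with 1.94% of all genes higher and 0.376% lower. There 2 members had an unadjusted p under 0.05. Between the CRE+ fractions, Plac8 was higher and Fn1 lower in Tim4- than in Tim4+ KCs, where 0.44% of all genes were higher and 5.01% lower. The 2 comparisons with CRE- KCs share their control samples, as do those with CRE- AMs.

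**Figure D1:**
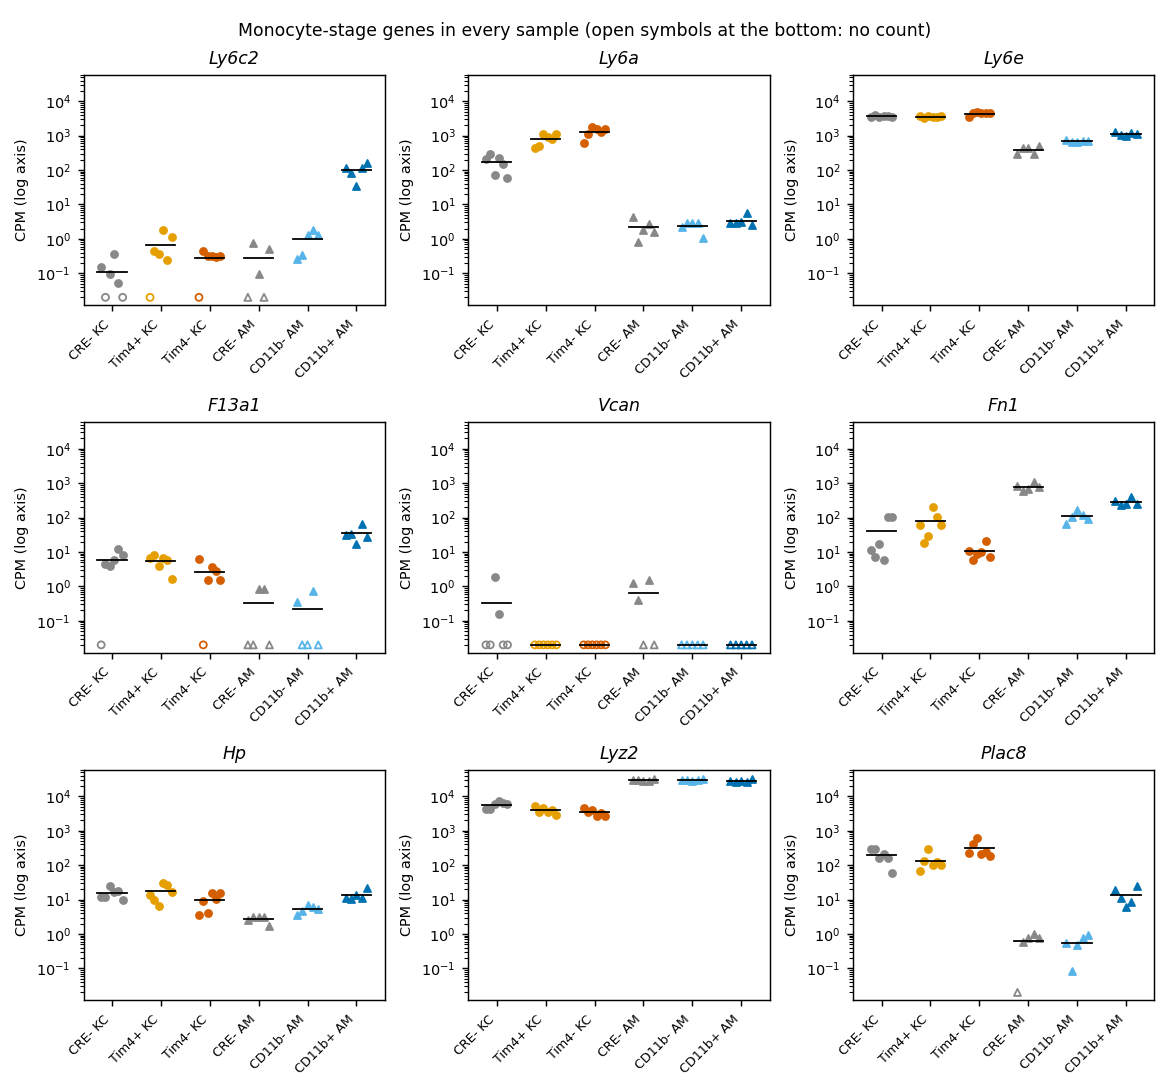
Level of each gene in each of the 33 samples, in CPM on a log axis, with KCs as circles, AMs as triangles, open symbols at the bottom for samples with no count, and a bar at the group mean. Ly6c2 lies between 35.2 and 156 CPM in CD11b+ AMs and at 1.81 CPM or less in every other sample, while Ly6a lies between 58.1 and 1738 CPM in KCs and at 5.58 CPM or less in AMs.

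Ly6c2 encodes the Ly6C antigen by which classical monocytes are recognised, and lies on the minus strand at chr15:75108158-75111970 (GRCm38, GENCODE M21, as all gene positions here). In CRE- AMs it measured 0, 0.749, 0.0945, 0 and 0.515 CPM in replicates 1 to 5. CD11b- AMs had 0.257, 0.334, 1.27, 1.78 and 1.34 CPM. CD11b+ AMs had 113, 84.9, 35.2, 115 and 156 CPM. The CD11b+ samples were all above every other AM sample, and replicate 3 was the lowest of them. The mean was 371-fold that of CRE- AMs, the log2 change being 8.74 (SE 0.57, 95% interval 7.54 to 9.94, adjusted p = 1.74e-10, edgeR quasi-likelihood). Against CD11b- AMs the log2 fold change was 6.87 (SE 0.49, adjusted p = 2.47e-09, edgeR). The difference between CD11b- and CRE- AMs, 1.87 (interval 0.15 to 3.59), did not pass after adjustment (adjusted p = 0.104, edgeR). In KCs, Ly6c2 was at the edge of detection, with 13 counts summed over the 6 CRE- samples, 84 over Tim4+ and 37 over Tim4- samples. Tim4- KCs reached 0.436 CPM at most and had a median of 0.326 CPM, within the range of Tim4+ KCs (0 to 1.81 CPM).

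The start of Ly6c2 is shown beside those of F13a1 and Plac8, since these genes rose together in CD11b+ AMs, and beside that of Ly6c1, the neighbouring copy of Ly6c2, which did not pass the test. Each line gives the 250 bases before the first RefSeq start site, read 5′ to 3′ on the minus strand of GRCm38.p6, at chr15:75111972-75112221 for Ly6c2, chr13:37050245-37050494 for F13a1, chr5:100572206-100572455 for Plac8 and chr15:75048838-75049087 for Ly6c1. Capitals mark GAGGAA, the core letters bound by PU.1, an ETS factor of all myeloid cells, on either strand.
Ly6c2: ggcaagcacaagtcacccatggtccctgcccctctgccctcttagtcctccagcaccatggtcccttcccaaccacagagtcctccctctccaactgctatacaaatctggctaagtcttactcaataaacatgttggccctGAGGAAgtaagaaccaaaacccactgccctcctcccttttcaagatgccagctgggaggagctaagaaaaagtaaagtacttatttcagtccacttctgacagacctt
F13a1: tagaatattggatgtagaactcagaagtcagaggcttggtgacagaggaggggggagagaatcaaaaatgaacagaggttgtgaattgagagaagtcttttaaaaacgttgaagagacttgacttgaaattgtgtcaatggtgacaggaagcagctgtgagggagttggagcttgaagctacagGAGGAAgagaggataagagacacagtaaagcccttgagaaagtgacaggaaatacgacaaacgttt
Plac8: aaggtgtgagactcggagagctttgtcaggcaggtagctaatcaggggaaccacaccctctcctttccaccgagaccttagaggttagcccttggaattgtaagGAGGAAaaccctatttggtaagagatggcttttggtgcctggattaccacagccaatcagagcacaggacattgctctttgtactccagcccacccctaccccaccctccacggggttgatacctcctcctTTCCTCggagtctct
Ly6c1: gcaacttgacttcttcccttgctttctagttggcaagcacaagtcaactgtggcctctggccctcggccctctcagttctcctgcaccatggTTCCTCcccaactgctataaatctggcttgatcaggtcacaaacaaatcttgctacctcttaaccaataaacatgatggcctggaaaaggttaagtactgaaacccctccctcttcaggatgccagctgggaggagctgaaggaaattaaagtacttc
Of the 9 genes, 5 had a promoter in the RefSeq table (Ly6c2, F13a1, Vcan, Lyz2 and Plac8), with 8 start sites. GAGGAA began 108 bases before the first Ly6c2 start, 66 before that of F13a1, 146 and 15 before that of Plac8 and 158 before that of Ly6c1. The second start listed for Ly6c2 had it too, at 142 and 8 bases, while the second starts of F13a1 and Plac8 and the windows of Vcan and Lyz2 did not hold it. Of 32851 promoters of the same length, 23.3% held these letters, so the match is a description and does not set these genes apart. CAGGTG, an E-box read by ZEB factors, was in 17.2% of all promoters, and GAAANNGAA, an interferon response element, in 7.13%. Neither was found on either strand in the windows of the 5 genes. GAGGAA and GAAANNGAA can share bases, and none did here. A missing match says only that the letters are not in these bases.

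Because Ly6c1 shares sequence with Ly6c2 (19.3% of the 35-base words in Ly6c2 transcripts, 35 being the shortest read kept), reads could be split between the copies. Ly6c1 measured 5.82, 0.785, 1.27, 1.83 and 0.711 CPM in CD11b+ AMs and between 0.412 and 1.16 CPM in CRE- AMs. Its log2 fold change of 1.43 (interval -0.13 to 3.0) did not pass the test (adjusted p = 0.134, edgeR). The level of Ly6c2 in CD11b+ AMs was far above that of its copy in all 5 samples, so the counts as deposited assign the rise to Ly6c2.

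Ly6a, the gene of the stem cell antigen Sca-1 (chr15:74994877-74998031, minus strand), had the reverse distribution. In KCs the lowest, median and highest samples were 58.1, 183 and 296 CPM in CRE-, 449, 851 and 1124 CPM in Tim4+ and 611, 1428 and 1738 CPM in Tim4- KCs. Every CRE+ sample was above every CRE- sample, and the ranges of the 2 CRE+ fractions overlapped. Ly6a rose 4.78-fold in mean CPM in Tim4+ KCs, or by 2.23 on the log2 scale (SE 0.35, interval 1.5 to 2.96, adjusted p = 0.000277, edgeR). It rose 7.72-fold in Tim4- KCs, or by 2.96 on the log2 scale (SE 0.36, interval 2.20 to 3.71, adjusted p = 4.18e-06, edgeR). Between Tim4- and Tim4+ KCs the log2 difference of 0.73 (interval 0.03 to 1.43) did not pass after adjustment (adjusted p = 0.181, edgeR). AMs held 4.23, 0.798, 1.84, 2.71 and 1.60 CPM in CRE- and 2.85, 2.86, 3.16, 5.58 and 2.59 CPM in CD11b+ samples, ranges that overlapped. Of the words in Ly6a transcripts, 29.4% are shared with other genes, 20.6% with Ly6c1, which stayed at 1.02 CPM or less in KCs.

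Ly6e, which encodes a GPI-anchored protein that restricts coronavirus entry (chr15:74955051-74959905, plus strand), was already high in KCs. Its level was 3701 ± 187 CPM in CRE- KCs, 3591 ± 177 CPM in Tim4+ KCs and 4408 ± 486 CPM in Tim4- KCs (SD, n = 6). The log2 difference of Tim4- KCs was 0.25 against CRE- and 0.33 against Tim4+ KCs, both with an adjusted p under the threshold (0.00954 and 0.00257, edgeR) but below the fold required for a call. In AMs it stepped up from group to group without overlap. CRE- AMs had 287, 437, 430, 285 and 488 CPM. CD11b- AMs had 758, 666, 663, 713 and 704 CPM. CD11b+ AMs had 1311, 1072, 963, 1182 and 1147 CPM. Ly6e rose in CD11b+ over CRE- AMs by 1.74 on the log2 scale (SE 0.13, interval 1.47 to 2.02, adjusted p = 1.38e-09, edgeR). The step from CRE- to CD11b- AMs was 0.88 and that from CD11b- to CD11b+ AMs 0.87, both under the fold threshold (adjusted p = 4.23e-05 and 2.66e-05, edgeR).

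**Figure D2:**
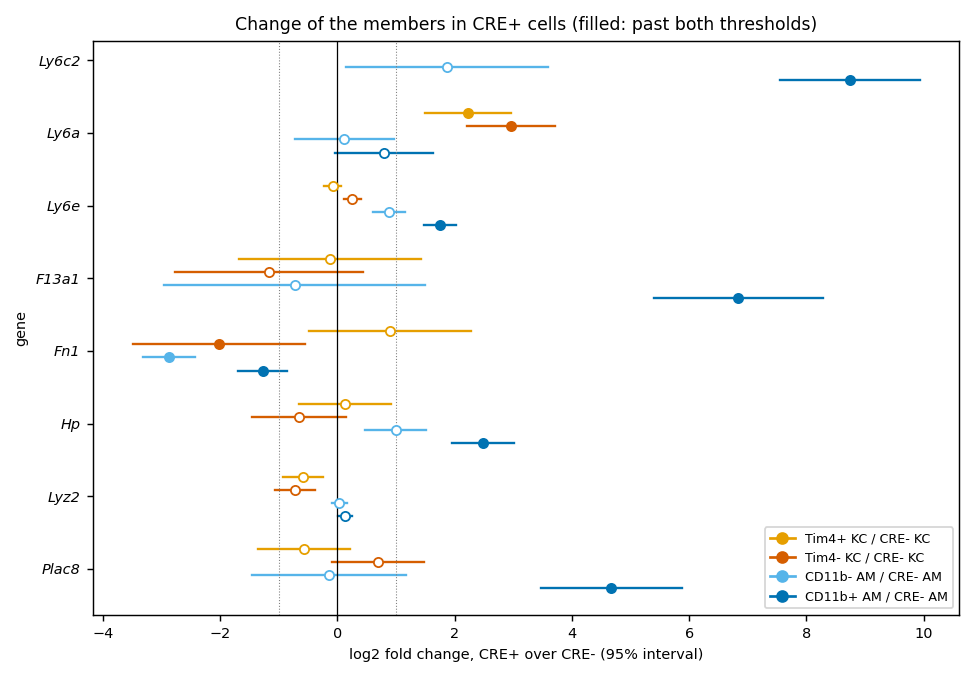
Log2 fold change of each gene in the CRE+ fractions over CRE- cells of the same tissue, with 95% intervals, filled where both thresholds were passed and dotted lines at a log2 fold change of 1 in each direction. Vcan was not tested, and Ly6c2 was not tested in KCs. The 5 rises in CD11b+ AMs run from 1.74 for Ly6e to 8.74 for Ly6c2, and in KCs the filled points are those of Ly6a and the Fn1 value of -2.03 in Tim4- KCs.

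Of the matrix and clotting genes, F13a1 encodes the catalytic subunit of coagulation factor XIII, a transglutaminase of monocytes and some resident macrophages (chr13:36867178-37050244, minus strand). CRE- AMs had 0, 0, 0.851, 0.822 and 0 CPM. CD11b- AMs had 0.359, 0, 0, 0.745 and 0 CPM. CD11b+ AMs had 32.2, 34.4, 16.8, 63.3 and 27.1 CPM. The CD11b+ samples stood clear of both other AM groups, with replicate 4 highest and replicate 3 lowest. F13a1 rose by 6.84 on the log2 scale over CRE- AMs (SE 0.69, interval 5.39 to 8.29, adjusted p = 9.93e-08, edgeR) and by 7.57 over CD11b- AMs (SE 0.74, adjusted p = 1.65e-07, edgeR). In KCs the lowest, median and highest samples were 0, 5.18 and 12.3 CPM in CRE-, 1.62, 6.28 and 8.13 CPM in Tim4+ and 0, 2.22 and 6.10 CPM in Tim4- samples. The 3 KC groups overlapped, and the log2 difference of Tim4- from CRE- KCs was -1.17 (interval -2.78 to 0.43, adjusted p = 0.286, edgeR).

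Vcan, the versican gene (chr13:89655312-89742509, minus strand), was not detectable at this depth in CRE+ macrophages. It had no count in any CRE+ sample of either tissue, which allows up to 0.305 CPM in the shallowest one, 3 counts being the limit that a count of 0 allows (counting error only). CRE- AMs had 1.29, 0.399, 0, 1.5 and 0 CPM. CRE- KCs had a highest sample of 1.89 CPM and 4 of 6 samples without a count. Vcan therefore did not move with Ly6c2 and F13a1 in CD11b+ AMs.

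Fn1 (chr1:71585520-71653200, minus strand) moved against the other genes in the lung. CRE- AMs had 859, 604, 678, 1053 and 802 CPM. CD11b- AMs had 65.9, 101, 166, 118 and 90.0 CPM. CD11b+ AMs had 300.4, 238, 255, 403 and 256 CPM. The 3 groups did not overlap, with CD11b+ AMs in between. Fn1 fell by 2.87 on the log2 scale in CD11b- AMs (SE 0.21, interval -3.31 to -2.43, adjusted p = 5.64e-09, edgeR) and by 1.28 in CD11b+ AMs (SE 0.20, interval -1.69 to -0.86, adjusted p = 2.75e-05, edgeR). It was 1.59 higher in CD11b+ than in CD11b- AMs (SE 0.20, adjusted p = 4.53e-06, edgeR). When KCs were fitted together with AMs, the fall in CD11b+ AMs kept its size of -1.26 but lost the call (adjusted p = 0.0981, edgeR).

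In KCs Fn1 was lower and uneven. CRE- KCs had 11.4, 6.99, 17.6, 6.04, 108 and 102 CPM in replicates 1 to 6. Tim4+ KCs had 62.6, 17.8, 30.0, 208, 105 and 61.7 CPM, and Tim4- KCs 10.7, 5.84, 8.67, 9.72, 20.4 and 7.14 CPM. All Tim4- samples but 1 were below every Tim4+ sample, and 2 of the 6 CRE- samples stood far above the other 4. Fn1 was lower in Tim4- than in Tim4+ KCs by a log2 difference of -2.93 (SE 0.72, interval -4.43 to -1.42, adjusted p = 0.00999, edgeR) and lower than in CRE- KCs by one of -2.03 (SE 0.70, interval -3.49 to -0.56, adjusted p = 0.0392, edgeR). Replicates 1 to 4 of each KC group had counts of Xist and replicates 5 and 6 had none. With replicates 1 to 4 alone, the difference between Tim4- and CRE- KCs was -0.26 (adjusted p = 0.814, edgeR), that between Tim4+ and CRE- KCs became a call at 2.90 (adjusted p = 0.0188, edgeR), and that between Tim4- and Tim4+ KCs was -3.15 (adjusted p = 0.00533, edgeR). The call against CRE- KCs also ended on leaving out CRE- replicate 5 or 6, or Tim4- replicate 1, 2, 3, 4 or 6, with log2 values from -1.49 to -2.04 and adjusted p from 0.0603 to 0.129 (edgeR). Liver endothelial genes moved in the same direction, since 7 of 8 were lower in Tim4- than in CRE- KCs and 7 of 8 lower than in Tim4+ KCs. Of all genes tested, 5.39% and 5.01% were lower. The endothelial genes summed to 638 to 1952 CPM in CRE-, 1126 to 3271 CPM in Tim4+ and 363 to 530 CPM in Tim4- KCs. None of the 8 was at 0 in any KC group, and their part in the Fn1 values was not tested.

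Hp (chr8:109575128-109579172, minus strand) rose in the lung from a low level. CRE- AMs had 2.62, 3.14, 3.17, 3.05 and 1.75 CPM. CD11b- AMs had 3.64, 4.68, 7.13, 6.24 and 5.40 CPM. CD11b+ AMs had 11.3, 10.1, 13.7, 11.0 and 21.4 CPM. The 3 groups did not overlap. Hp rose by 2.48 on the log2 scale in CD11b+ AMs over CRE- AMs (SE 0.25, interval 1.95 to 3.01, adjusted p = 1.18e-07, edgeR) and by 1.49 over CD11b- AMs (SE 0.24, adjusted p = 7.52e-05, edgeR). The difference of CD11b- from CRE- AMs was 0.99 (SE 0.25, adjusted p = 0.00604, edgeR), just under the fold threshold. In KCs the ranges of 9.81 to 24.8 CPM in CRE-, 6.70 to 30.0 CPM in Tim4+ and 3.56 to 15.9 CPM in Tim4- samples overlapped, and Tim4- differed from CRE- KCs by -0.66 (interval -1.46 to 0.14, adjusted p = 0.225, edgeR). Hepatocytes are the main source of Hp, and the 8 hepatocyte markers summed to 188 to 483 CPM in CRE- KCs, 153 to 461 CPM in Tim4+ KCs and 89.4 to 244 CPM in Tim4- KCs, none at 0. In AMs they summed to 0.462 CPM or less, with Alb at 0 in CD11b+ AMs. The part of hepatocyte RNA in the KC values of Hp was not tested.

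Lyz2 (chr10:117277331-117282321, minus strand) was the most abundant of the 9 genes per kilobase of exon in both tissues. AMs had 29361 ± 2060 CPM in CRE-, 29716 ± 1190 CPM in CD11b- and 28321 ± 2138 CPM in CD11b+ samples (SD, n = 5), and the groups overlapped. The log2 difference of CD11b+ from CRE- AMs was 0.13 after scaling (interval 0.01 to 0.25, adjusted p = 0.0773, edgeR), while the unscaled mean was slightly lower, since CD11b+ samples took smaller scaling factors (0.901 to 0.938, against 1.02 to 1.06 in the other AMs). In KCs Lyz2 was 5715 ± 1161 CPM in CRE-, 3918 ± 860 CPM in Tim4+ and 3469 ± 722 CPM in Tim4- samples (SD, n = 6). The log2 difference from CRE- KCs was -0.59 in Tim4+ (adjusted p = 0.033) and -0.72 in Tim4- KCs (adjusted p = 0.00248, edgeR), both under the fold threshold. Lyz1 shares 28.4% of the words in Lyz2 transcripts, and its log2 difference was -0.68 in Tim4- KCs (adjusted p = 0.00884, edgeR) and 0.22 in CD11b+ AMs (adjusted p = 0.281, edgeR).

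Plac8 (chr5:100553725-100572245, minus strand) was the tested member with the largest log2 difference of CRE- KCs from CRE- AMs. CRE- AMs had 0, 0.599, 0.756, 0.967 and 0.772 CPM. CD11b- AMs had 0.564, 0.0835, 0.472, 0.745 and 0.941 CPM. CD11b+ AMs had 18.9, 10.8, 5.99, 8.63 and 25.2 CPM. All CD11b+ samples were above all other AMs, and replicate 3 was again the lowest. Plac8 rose by 4.67 on the log2 scale over CRE- AMs (SE 0.58, interval 3.47 to 5.88, adjusted p = 1.44e-06, edgeR) and by 4.82 over CD11b- AMs (SE 0.58, adjusted p = 2.45e-06, edgeR). KCs already held more, with 300.0, 303, 159, 205, 164 and 57.6 CPM in CRE-, 66.2, 135, 289, 102, 125 and 99.0 CPM in Tim4+ and 224, 412, 636, 212, 240.4 and 183 CPM in Tim4- samples. The groups overlapped, and Tim4+ replicate 3 was the highest of its group as Tim4- replicate 3 was of its own. Plac8 was 1.26 higher on the log2 scale in Tim4- than in Tim4+ KCs (SE 0.38, interval 0.47 to 2.05, adjusted p = 0.0339, edgeR). That call ended on leaving out Tim4- replicate 2 or 3, or Tim4+ replicate 1, 2, 4, 5 or 6, with log2 values from 0.94 to 1.26 and adjusted p from 0.0593 to 0.117 (edgeR). Tim4- was above the Tim4+ sample of the same number in all 6 numbers, and the call held with a replicate block. Whether a number marks 1 animal is not stated. Against CRE- KCs the difference was 0.69 (interval -0.09 to 1.47, adjusted p = 0.19, edgeR).

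Between the CRE- macrophages of liver and lung, all 7 members tested differed, but F13a1 and Plac8, near 0 in AMs, passed the filter on low counts through KCs. With at least 10 counts in every sample, 3 members were higher (Ly6a, Ly6e and Hp). F13a1, Hp, Ly6a, Ly6e and Plac8 were higher and Fn1 and Lyz2 lower in KCs, where 20.9% of 12145 genes were higher and 12.4% lower. The log2 difference was largest for Plac8 at 8.33 (SE 0.55, adjusted p = 5.99e-09, edgeR) and Ly6a at 6.24 (SE 0.52, adjusted p = 9.3e-08, edgeR). For Fn1 the log2 difference was -4.22 (SE 0.72, adjusted p = 0.000129, edgeR). The F13a1 value of 4.10 (adjusted p = 0.00602, edgeR) was not called by limma-voom (4.69, adjusted p = 0.117). Tissue and preparation cannot be told apart here. Per kilobase of exon, CRE- KCs held 4343 CPM of Lyz2, 978 of Ly6e, 141 of Ly6a and 124 of Plac8, and 9.61 or less of the other 5 genes. CD11b+ AMs held 21520 CPM per kilobase of Lyz2, 300.0 of Ly6e, 36.8 of Ly6c2 and 24.9 of Fn1, followed by Plac8 at 8.74, Hp at 8.39 and F13a1 at 5.16.

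In the CD11b- AMs 1 of the 8 members tested was called, Fn1, with 0 higher while 3.98% of all genes were higher and 2.51% lower. DESeq2 also called 0 members higher there, and 4 members had an unadjusted p under 0.05. The log2 changes of Ly6c2, F13a1 and Plac8 over CRE- AMs were 1.87, -0.73 and -0.15, none of them called. Between CD11b+ and CD11b- AMs 5 of 8 members were higher (F13a1, Ly6c2, Plac8, Fn1 and Hp) and 0 lower, beside 6.85% and 3.3% of all genes. Of these, Fn1 and Hp were tested and called with at least 10 counts in every sample. No member was lower by DESeq2 either, and 6 had an unadjusted p under 0.05.

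The change in Tim4- KCs was set against that in CD11b+ AMs in a fit of all 33 samples, as a difference of the 2 log2 fold changes, each over its own CRE- cells. By this test 5.49% of 13294 genes changed more upward in the liver and 9.19% more upward in the lung, and of the 8 members tested 1 and 5 did so. Ly6c2, F13a1 and Plac8 were near 0 in CRE- AMs, and Ly6c2 in KCs as well, so the count over tested members is a description. With at least 10 counts required in every sample, 2 members changed more upward in the lung. Tissue, Cre driver and sort marker differed together between these groups and cannot be told apart, so liver and lung here name the groups. Ly6a was higher by 2.18 in the liver (SE 0.58, interval 1.0 to 3.36, adjusted p = 0.0039, edgeR). Limma-voom gave Ly6a 2.24 with an adjusted p of 0.333. The difference was -8.04 for F13a1 (SE 1.25, adjusted p = 5.91e-06, edgeR), -7.22 for Ly6c2 (SE 1.67, adjusted p = 0.00106, edgeR) and -3.97 for Plac8 (SE 0.73, adjusted p = 6.9e-05, edgeR). Hp differed by -3.13 (SE 0.52, adjusted p = 1.45e-05, edgeR) and Ly6e by -1.48 (SE 0.15, adjusted p = 1.86e-09, edgeR). Limma-voom gave Plac8 -4.39 with an adjusted p of 0.131. The Ly6c2 value rests on KC counts near 0. For Fn1 the difference was -0.75 (interval -2.40 to 0.91) and did not pass (adjusted p = 0.545, edgeR), and it turned to 0.068 by limma-voom and 0.99 with KC replicates 1 to 4.

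**Figure D3:**
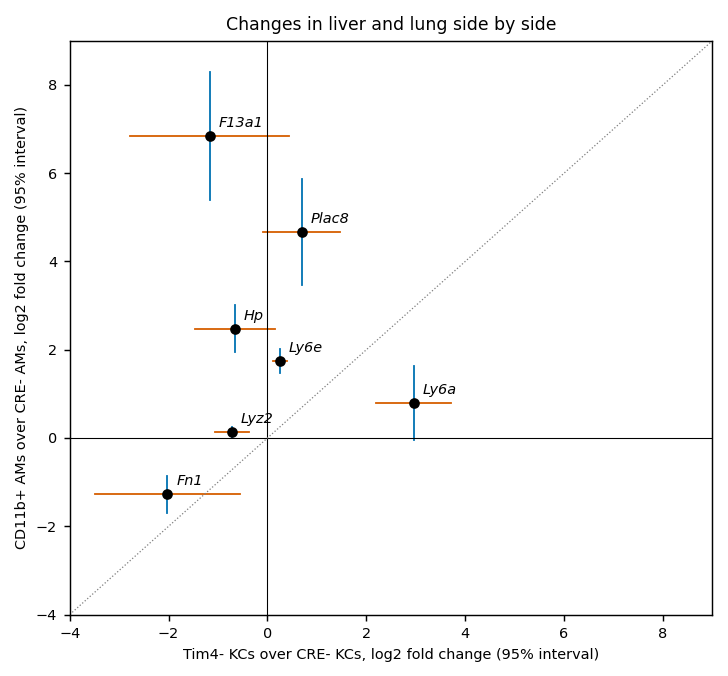
Log2 fold change in Tim4- KCs over CRE- KCs (x axis) against that in CD11b+ AMs over CRE- AMs (y axis) for the 7 genes tested in both fits, with 95% intervals and a dotted line at equal change. F13a1, Plac8, Hp and Ly6e lie above the line and Ly6a, at 2.96 in KCs and 0.79 in AMs, lies below it.

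Other genes of monocytes, in lists drawn up with earlier results of these data known, were read beside the members. Of 11 other classical monocyte genes, 8 were higher in CD11b+ than in CRE- AMs and 0 lower, with a median log2 fold change of 2.60 against -0.01 over all genes tested. Of all genes, 9.57% were higher and 5.68% lower. Thbs1, the thrombospondin gene, was higher by 5.26 (adjusted p = 0.000197, edgeR). Ifitm6, with no count in CRE- AMs, reached 1.32 to 3.30 CPM and passed the filter on low counts through the CRE+ samples, so its call is a description. Other listed genes low in CRE- AMs could pass the filter in the same way, so the count and median of the list are descriptions too. In Tim4- KCs 3.43% of all genes were higher and 5.39% lower. Of the 11, 3 were higher and 0 lower there, with a median of 0.71 against -0.03. These were Ccr2, the receptor by which monocytes leave the marrow, Emb and Ms4a4c. Ccr2 ranged from 2.39 to 7.47 CPM in CRE-, from 10.3 to 31.4 CPM in Tim4+ and from 58.9 to 158 CPM in Tim4- KCs, without overlap. It rose by 4.52 on the log2 scale in Tim4- KCs (SE 0.33, adjusted p = 3.38e-09) and by 2.11 in Tim4+ KCs (SE 0.31, adjusted p = 0.000106, edgeR), where it was the called gene of the 11. In CD11b+ AMs it rose by 2.60 (SE 0.28, adjusted p = 2.91e-07, edgeR), to between 16.3 and 38.2 CPM. The rise was greater by 1.92 in Tim4- KCs in the test of the difference (SE 0.44, adjusted p = 0.00104, edgeR), opposite in sign to Ly6c2 and F13a1. In CD11b- AMs 2 of the 11 were higher (S100a4 and Ccr2), beside 3.98% of all genes.

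Type I interferon genes, the class to which Ly6a and Ly6e respond, also differed between the KC and AM groups. Of all genes, 9.57% were higher and 5.68% lower in CD11b+ AMs, 3.43% and 5.39% in Tim4- KCs, and 1.94% and 0.376% in Tim4+ KCs. In CD11b+ AMs 8 of 12 tested were higher than in CRE- AMs and 0 lower, with a median of 1.48, led by Usp18 at 4.16 (adjusted p = 5.34e-07) and Irf7 at 2.27 (adjusted p = 6.14e-09, edgeR). In Tim4- KCs 2 of 14 were higher (Ifi44 and Isg15) and 0 lower, with a median of 0.26, beside the rise of Ly6a there. In Tim4+ KCs 1 of 14 was higher (Ifi44), with a median of -0.05. The summed level of the 14 genes was 1897 to 3105 CPM in CRE- KCs and 165 to 203 CPM in CRE- AMs.

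Of 10 non-classical monocyte genes, 3 were higher in Tim4- than in CRE- KCs (Pglyrp1, Cx3cr1 and Spn) and 0 lower, with a median log2 fold change of 0.69. Of all genes, 3.43% were higher and 5.39% lower. In Tim4+ KCs 2 of the 10 were higher (Pglyrp1 and Cx3cr1), beside 1.94% of all genes. In CD11b+ AMs 3 were higher (Pglyrp1, Cx3cr1 and Adgre4) and 1 lower (Spn), with a median of 0.14, beside 9.57% and 5.68% of all genes. Cx3cr1, a chemokine receptor of patrolling monocytes, ranged from 2.57 to 8.86 CPM in CRE- and from 55.4 to 358 CPM in Tim4- KCs, its log2 change being 4.79 (SE 0.69, adjusted p = 3e-05, edgeR). Spn, the gene of CD43, was called in opposite directions, 3.46 in Tim4- KCs (adjusted p = 0.00603) and -1.25 in CD11b+ AMs (adjusted p = 7.63e-06, edgeR).

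**Figure D4:**
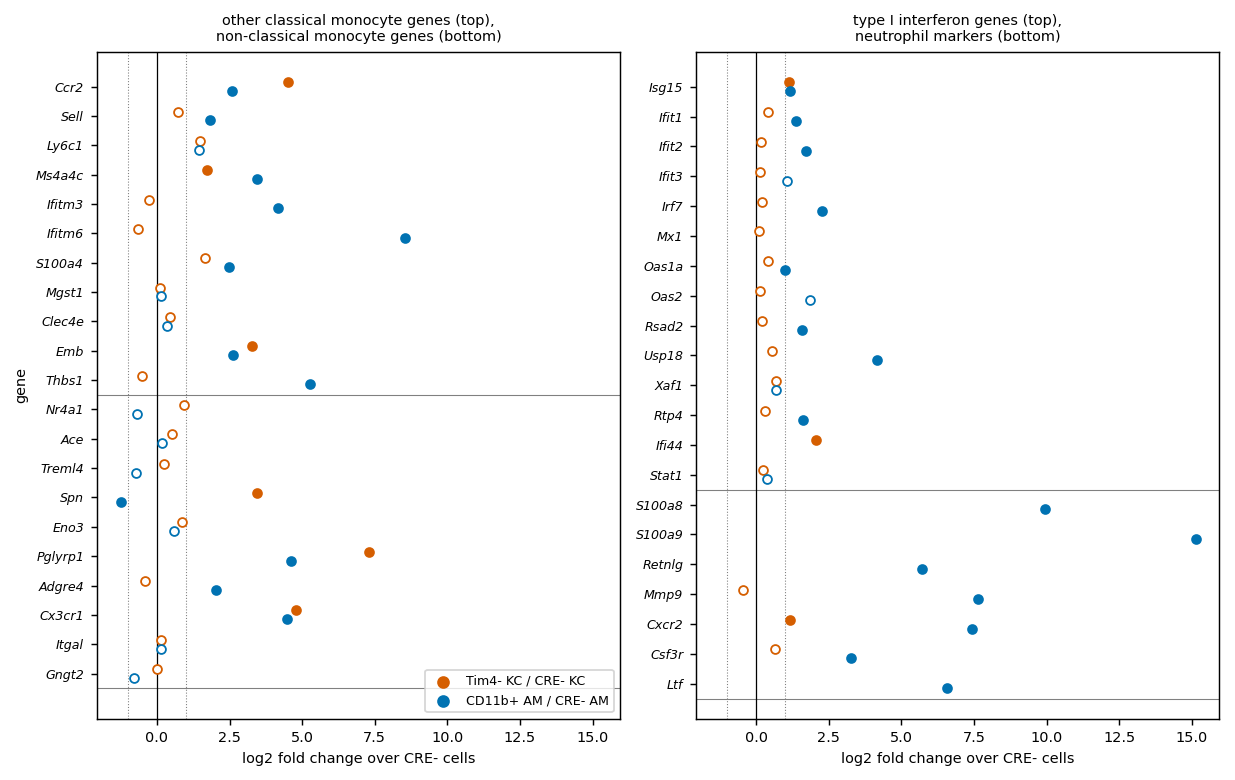
Log2 fold change over CRE- cells of the same tissue for genes of 4 lists, Tim4- KCs in orange and CD11b+ AMs in blue, filled where both thresholds were passed, dotted lines at 1 in each direction. Ccr2, Emb and Ms4a4c are the filled orange points among the classical monocyte genes, and 8 blue points are filled there. Values of genes near 0 in CRE- cells, such as Ifitm6 and S100a9, depend on the prior count of the fit.

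Markers of neutrophils moved with the members in the lung. All 7 of 10 listed markers that could be tested were higher in CD11b+ than in CRE- AMs, and 5 of 7 in CD11b- AMs. Of all genes tested, 9.57% and 3.98% were higher there. In CD11b+ AMs S100a9 rose by 15.1 on the log2 scale, S100a8 by 9.93, Mmp9 by 7.64 and Cxcr2 by 7.44. Ltf rose by 6.56, Retnlg by 5.72 and Csf3r by 3.26. Markers low in CRE- AMs could pass the filter on low counts through CRE+ samples, where they are high. The counts of markers called are thus a description. The summed level of the markers was 37.3 to 61.6 CPM in CRE-, 817 to 2406 CPM in CD11b- and 7410 to 9260 CPM in CD11b+ AMs. S100a8, which monocytes also transcribe, made up the largest share, with 3683 to 4625 CPM in CD11b+ AMs and 2.83 to 6.24 CPM in CRE- AMs. The granule genes of developing neutrophils were low, with Ngp from 0 to 12.1 CPM and Camp from 0 to 3.05 CPM in CD11b+ AMs, both at 0 in CD11b- AMs, and Ltf reached 21.3 CPM. The part of neutrophil RNA in the CD11b+ values of the members was not tested. In KCs the same markers summed to 87.2 to 134 CPM in CRE- and 115 to 191 CPM in Tim4- samples, with Ngp and Camp at 0 in both. Markers of B cells summed to 48.6 to 87.8 CPM in CRE- and 49.4 to 114 CPM in Tim4- KCs, and those of dendritic cells to 1.80 CPM or less in CRE- and 5.8 to 11.3 CPM in CD11b+ AMs.

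Over the 15 AM samples Ly6c2 varied with the other rising genes, with Pearson's r of log2 CPM of 0.945 to Ly6e, 0.896 to Hp, 0.882 to Plac8 and 0.775 to F13a1, and -0.179 to Fn1. Over the 18 KC samples no such set was seen, the largest r being 0.603 for Ly6e with Plac8 and the lowest -0.767 for Ly6a with Lyz2. Differences between groups enter these values, which describe these samples. Within CD11b+ AMs the highest sample was replicate 5 for Ly6c2, Hp and Plac8, replicate 4 for F13a1 and Fn1 and replicate 1 for Ly6e. The lowest was replicate 3 for Ly6c2, F13a1, Plac8 and Ly6e.

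Across all 33 samples and 8099 genes, the genes outside the set with the most similar pattern were taken by Pearson's r of log2 CPM. For Ly6c2 they were Kctd10 (0.906), Grina (0.904) and Crip1 (0.881), and for F13a1 Sos2 (0.806), Clip1 (0.792) and Lrrc8a (0.790). Ly6a was most like Parp9 (0.977), Psme1 (0.974) and Parp12 (0.973), and Plac8 most like Ms4a6b (0.976), Mnda (0.976) and Oas3 (0.970). Ly6e was most like Lgmn (0.986), Osgin1 (0.985) and Ms4a6b (0.984), and Lyz2 most like Anxa5 (0.991), Abhd17c (0.985) and Atxn10 (0.984). Hp was most like Rnf141 (0.860), Snap47 (0.839) and Rxra (0.821), and Fn1 most like Slpi (0.896), Dap (0.869) and Rassf3 (0.868). The samples share tissues and groups, and the difference between liver and lung enters each r.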

How the data were processed

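RNA of sorted KCs and AMs was sequenced in 33 samples. Per the study's methods and the submitters' processing notes, the authors trimmed adapters and bases of quality under 20 with Trimmomatic 0.35, dropped reads shorter than 35 bases, checked them with FastQC 0.11.4, mapped them with TopHat2 2.1.0 to mm10 (SAMtools 0.1.18) and counted reads per gene symbol with HTSeqCount, and they deposited these unnormalized counts, 1 file per sample. The annotation and the strand setting of counting are not given in the sources used here. The files end in 5 tally rows, which were left out of library sizes, and reads in no gene were 4.52% to 8.90% of all reads tallied. Of the symbols, 95.7% were in GENCODE M21, which gave positions and exon lengths.

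Groups were taken from the sample titles. CPM given as levels are counts per 1000000 counts in genes, without further scaling. The log2 CPM used for Pearson's r were scaled by TMM factors with a prior count of 0.5. Tests used edgeR 4.0.16 (R 4.3.3) with TMM factors, filterByExpr, glmQLFit and glmQLFTest without covariates, fitted within KCs, within AMs, on the CRE- samples of both tissues, or on all 33 samples for the difference of changes. The study used limma-voom, which was run as an alternative (limma 3.58.1), as were DESeq2 1.42.0, RLE factors, no filter, a filter of 10 counts in every sample, no fold threshold, other sample sets, KC replicates 1 to 4 alone, a replicate block and leaving out each sample. The fits were tested on simulated data. Over 75 pairs of samples of a group, none agreed within sampling noise. Depth sets a limit of 3 counts, 0.123 to 0.305 CPM, for a gene without a count, and such limits cover counting error only. The genes and the supporting lists were chosen with earlier results of these data known. The text names the members, up to 2 called genes in each direction from each monocyte and interferon list, the most abundant marker and those without a count for other cell types, the sort and Cre genes, and the 3 genes most like each member by r, among genes with a mean log2 CPM of at least 3. Further genes that make up a count of 5 or fewer were named after their values were seen, as were Ms4a4c, S100a9, Mmp9, Cxcr2, Retnlg, Csf3r, Ltf and Camp. Figures were drawn with matplotlib 3.10.9.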

Additional observations from a re-analysis of the deposited data

Results flagged for a closer look

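The level of each of the 9 genes was examined in each of the 6 groups, 54 sets in all, for a sample set apart from the others by Dixon's criterion. In 6 sets a sample stood apart. Chance alone marks about 1 in 20 sets of normally distributed values, a rate that need not hold for CPM near 0. Sets without any count, those of Vcan in the CRE+ groups, could not be marked. Tim4- KC replicate 1, the sample with the fewest counts, was low for Ly6c2 (0 CPM, the next being 0.300 CPM) and for Ly6e (3450 CPM, the next being 4430 CPM). Tim4- KC replicate 5 was high for Fn1 (20.4 CPM, the next being 10.7 CPM). Tim4+ KC replicate 3 was high for Plac8 (289 CPM, the next being 135 CPM). CRE- KC replicate 3 was high for Vcan (1.89 CPM, the next being 0.158 CPM). CD11b+ AM replicate 4 was high for Ly6a (5.58 CPM, the next being 3.16 CPM).

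For 6 genes the change in Tim4- KCs differed from that in CD11b+ AMs by edgeR's test of the difference, as log2 values of -8.04 for F13a1, -7.22 for Ly6c2, -3.97 for Plac8, -3.13 for Hp, -1.48 for Ly6e and 2.18 for Ly6a. The cause was not tested, and tissue, Cre driver and sort marker cannot be told apart.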

How the results depend on the processing

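The 5 rises in CD11b+ over CRE- AMs were called under every alternative in which the gene was tested, and the rise of Ly6a in Tim4- and Tim4+ KCs under all of them. The counts of called members that moved were these, and the cause was not tested except where a filter or threshold sets it by construction. With at least 10 counts in every sample, which removes low genes, 3 members were higher in CRE- KCs than in CRE- AMs, 2 in CD11b+ than in CRE- AMs and 2 in CD11b+ than in CD11b- AMs, and 2 changed more upward in the lung. With no fold threshold, Tim4+ KCs had 1 lower, Tim4- KCs 2 higher and 2 lower than CRE- KCs and 2 higher than Tim4+ KCs, and CD11b- AMs 2 higher. Without a filter, 2 were lower in both CD11b- and CD11b+ AMs, Vcan being added. With KC replicates 1 to 4 alone, 2 were higher in Tim4+ and 0 lower in Tim4- than in CRE- KCs. Limma-voom called 0 lower in Tim4- KCs (Fn1 -1.21, adjusted p = 0.357) and 0 changed more upward in the liver. With all 33 samples, 0 were lower in CD11b+ AMs. Leaving out 1 sample gave 0 to 1 lower in Tim4- than in CRE- KCs, 0 to 1 higher in Tim4- than in Tim4+ KCs, 0 to 1 higher in CD11b- AMs (Hp, 1.04 to 1.11 without CD11b- replicate 1 or 2 or CRE- replicate 2, 3 or 4) and 5 to 6 higher in CD11b+ AMs (Ly6a 1.15, adjusted p = 0.0292 by edgeR, without CRE- replicate 1).

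Same-numbered samples are not stated to come from the same animal, and in no comparison did every pair of numbers correlate above 0.1 (lowest r 0.09 for Tim4- with Tim4+ KCs), so the numbers were not taken as pairs. As a hint from the data alone, all 6 Tim4- samples correlated best with their own number in Tim4+, and all 5 CD11b+ samples with theirs in CD11b-. With the replicate block, 0 members were lower in Tim4- than in CRE- KCs (Fn1 -1.5, adjusted p = 0.0639 by edgeR), and no other call on a member changed. The higher Plac8 in Tim4- than in Tim4+ KCs was 1.22 with the block (adjusted p = 0.00865 by edgeR), and Tim4- was above the same-numbered Tim4+ sample in each of the 6 numbers.

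Uncalled values that turned sign were, in Tim4+ KCs, F13a1 (0.86 by limma-voom, 0.77 with replicates 1 to 4, -0.39 to 0.25 with 1 sample left out) and Hp (-0.033 with the block, -0.15 with replicates 1 to 4, -0.11 to 0.31 with 1 left out). In CD11b- AMs they were Plac8 (0.25 by limma-voom, -0.48 to 0.16 with 1 left out) and Ly6a (-0.090 to 0.48 with 1 left out). The difference of changes of Fn1 was 0.068 by limma-voom and 0.99 with replicates 1 to 4.

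Counts over all genes moved by more than 1.5 times as follows. With no fold threshold, those higher and lower went from 2543 and 1502 to 4048 and 3632 between CRE- KCs and AMs, from 242 and 47 to 454 and 307 in Tim4+ and from 429 and 674 to 1522 and 1647 in Tim4- against CRE- KCs, from 55 and 626 to 480 and 953 between Tim4- and Tim4+ KCs, from 461 and 291 to 1534 and 1438 in CD11b- and from 1108 and 657 to 2635 and 2369 in CD11b+ against CRE- AMs, from 793 and 382 to 2295 and 1920 between CD11b+ and CD11b- AMs, and from 730 and 1222 to 1969 and 2083 for the difference of changes. With at least 10 counts in every sample, those higher fell to 1221, 155 and 271 in the first 3 of these, to 221, 616 and 404 in the 3 AM comparisons and to 457 for the difference of changes, and those lower to 417 and 407 for Tim4- KCs, 173 for CD11b- AMs and 578 for the difference of changes. Genes lower in Tim4+ KCs were 73 by limma-voom and 28 with replicates 1 to 4, and those higher in Tim4- than in Tim4+ KCs were 34 without Tim4- replicate 3.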

Other observations

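Genes that mark the identity of each macrophage were read beside the members, from lists drawn up with earlier results known. The 6 Kupffer cell genes, led by Clec4f in the controls, summed to 21785 to 24468 CPM in CRE-, 14444 to 16000 CPM in Tim4+ and 9211 to 10592 CPM in Tim4- KCs, without overlap. This list holds Timd4, the gene of the sort marker, and Clec4f, whose locus carries the inserted Cre in CRE+ mice only. Marco, also on it, changed by 1.39 on the log2 scale in Tim4+ and by -1.25 in Tim4- KCs over CRE- KCs. The fall of this sum is therefore partly set by the sort and does not describe each gene. The 6 alveolar macrophage genes summed to 2712 to 3097 CPM in CRE-, 3329 to 4036 CPM in CD11b- and 3474 to 4698 CPM in CD11b+ AMs. Its members moved in both directions in CD11b+ over CRE- AMs, by edgeR's test. Car4 was higher by 1.54 on the log2 scale and Marco, which is also on the Kupffer cell list, by 1.21, while Krt79 fell by 1.74 and Siglecf fell by 1.28, so the sum does not describe each gene. Siglecf was at 172 to 210 CPM in CD11b+ AMs against 492 to 608 CPM in CRE- AMs. In Tim4- KCs Siglecf ranged from 254 to 424 CPM, against 1.69 to 5.89 CPM in CRE- KCs.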
